A study of Mus musculus with 8 samples.

Results

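Ptbp2, Ptbp1 and Ptbp3 encode the 3 members of the mammalian polypyrimidine tract binding protein (PTB) family. They are 3 of the 12960 genes that could be tested here, in cortices taken from mouse embryos on embryonic day 18.5, 4 of them Ptbp2 knockout (Ptbp2 KO) and 4 wild type. Affymetrix mouse exon arrays were used, which carry many short probe sets along each gene. Members were the probe sets annotated to exactly 1 symbol, that symbol being Ptbp2, Ptbp1 or Rod1, the older symbol of Ptbp3. This gave 68 of 625534 probe sets in the table, with 21 for Ptbp2, 29 for Ptbp1 and 18 for Ptbp3. The strain of both groups was a mix of CD1 and C57BL/6, and each array held RNA from 1 embryo as a biological replicate. The knockout allele, the part of the gene it removes and whether it was driven by a Cre line were not given in the sources used here. The position of a probe set within its gene was not used here either, so a probe set is named by its number and not as an exon.

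PTB proteins bind stretches of pyrimidines in RNA and mostly repress the splicing of nearby exons. Ptbp1 is made in neural progenitors, glia and most other cells, and Ptbp2 replaces it as neurons differentiate. Ptbp3 was first described in blood-forming cells. PTB proteins can lower transcripts of their own family, where skipping of a regulated exon shifts the reading frame and sends the transcript to nonsense-mediated decay. When Ptbp1 is lost in cultured cells, Ptbp2 protein commonly goes up. The comparison of Ptbp2 KO with wild type cortex asks the reverse question, but for RNA in bulk tissue and not for protein. It asks whether Ptbp1 or Ptbp3 transcripts went up where Ptbp2 was missing. It also asks whether single probe sets of either paralog behaved unlike the rest of their gene.

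The array medians lay between 6.82 and 6.93 on the log2 scale, and precision is limited by there being 4 arrays a group. In a principal component analysis, wild type 3 lay farthest out on component 1 and Ptbp2 KO 3 on component 2, and results are therefore also given without both. Neurod6 and Tbr1, transcription factor genes of cortical projection neurons, averaged 11.56 and 9.45 in Ptbp2 KO, against 11.54 and 9.65 in wild type cortex, so defining cortical markers were present in both groups. Of 10 neuron marker genes, 8 could be tested, and their mean level lay between 11.41 and 11.53 in Ptbp2 KO and between 11.57 and 11.79 in wild type arrays. Snap25, which encodes a synaptic fusion protein, was the one of these 8 that passed the test, with means of 10.06 in Ptbp2 KO and 10.90 in wild type cortex (log2 fold change -0.84, limma adjusted p = 0.0048). Of the 8, 3 lay above 0 and 5 below, with a median log2 fold change of -0.04. At an unadjusted limma p under 0.05, 2 were lower, Snap25 and Syt1, and 0 higher, against 3.79% lower and 2.7% higher of all genes. Syt1, which encodes a calcium sensor of synaptic vesicles, had a log2 fold change of -0.24 without overlap between the groups (limma adjusted p = 0.75). Lower values without overlap were seen for 1.97% of all genes. Without Snap25 the mean level of the other 7 overlapped between the groups, at 11.59 to 11.75 in Ptbp2 KO and 11.67 to 11.88 in wild type arrays. In bulk tissue, fewer cells that express a gene and less RNA per cell cannot be told apart. Radial glia markers, 7 of 9 tested, lay between 9.71 and 9.86 in Ptbp2 KO and between 9.61 and 9.88 in wild type arrays.

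Ptbp2 signal was nearly lost in Ptbp2 KO cortex. The gene value, a median over the 18 probe sets with a mean signal of at least 6.84 (the median of the table), was 6.24, 5.80, 5.54 and 6.22 in Ptbp2 KO embryos 1 to 4, against 11.40, 11.15, 11.08 and 11.16 in wild type embryos 1 to 4. The highest Ptbp2 KO value lay far below the lowest wild type value, and 3.65% of all genes had no overlap in either direction. The means were 5.95 ± 0.34 in Ptbp2 KO and 11.20 ± 0.14 in wild type cortex (SD, n = 4 each), a log2 fold change of -5.25 (SE 0.14, 95% interval -5.55 to -4.95, limma adjusted p = 1.7e-12 over all genes). This was the largest change among the 12960 genes tested, of which 15, or 0.116%, passed the threshold of 0.05. The two-sided exact permutation test gave p = 0.0286, the smallest that 4 against 4 arrays can give.

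**Figure D1:**
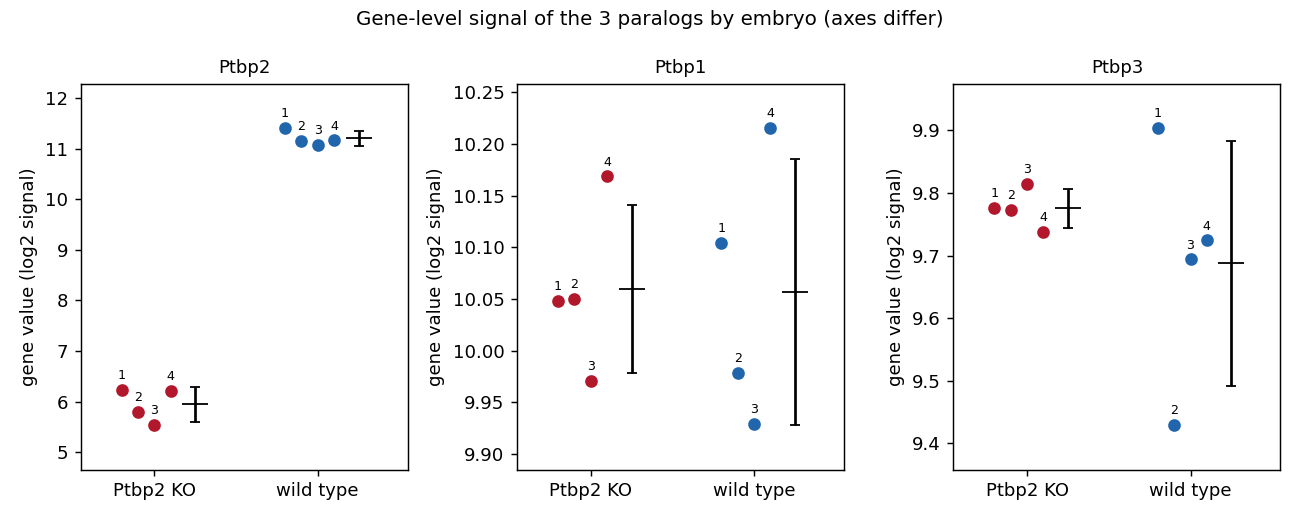
Gene value (log2 signal, vertical axis, scaled separately in each panel) of Ptbp2, Ptbp1 and Ptbp3 in the 4 Ptbp2 KO and 4 wild type embryos, with embryo numbers above the points and the mean ± SD as a black bar. Ptbp2 has a log2 fold change of -5.25, whereas the groups overlap for Ptbp1 and Ptbp3.

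At the level of single probe sets, 17 of the 18 retained Ptbp2 probe sets fell, where 0.0304% of all 312767 retained probe sets were called lower, and none rose, where 0.0617% of all were called higher. The 3 Ptbp2 probe sets under the signal filter also had all Ptbp2 KO values below all wild type values, and with no filter 20 of 21 were called. Lower values without overlap were seen for 20 of the 21, against 1.44% of all probe sets on the array and 1.51% of those retained. In each of these 20 the closest pair of a Ptbp2 KO and a wild type embryo was still separated by at least 2.88 log2 units. A filter on the mean signal can drop a probe set because it is low in the knockout alone, so all 21 were examined.

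The size of the measured difference varied between probe sets, and levels of different probe sets cannot be set against each other as amounts of transcript. Probe set 5329093 had the largest difference, with 5.69, 5.31, 4.37 and 4.02 in Ptbp2 KO embryos 1 to 4, against 11.44, 11.11, 10.91 and 11.27 in wild type (log2 fold change -6.33, SE 0.31, limma adjusted p = 3.7e-06). Probe set 5255394 had the smallest difference among those that fell, with 9.13, 9.33, 9.16 and 9.11 in Ptbp2 KO, against 12.30, 12.29, 12.22 and 12.37 in wild type (log2 fold change -3.11, SE 0.11, limma adjusted p = 1.6e-07). Its Ptbp2 KO values were closely grouped and stood above 81.9% of the probe sets in the table. On a linear scale the Ptbp2 KO signal of the 20 probe sets was between 1.24% and 11.6% of wild type, with a median of 3.03%. Because the arrays give signal and not molecules, and low signals are compressed, these shares, and the order of the differences, are no measure of remaining transcript.

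Probe sets that were bright in wild type cortex also tended to be brighter in Ptbp2 KO cortex. Over the 20 probe sets the Ptbp2 KO mean and the wild type mean had a Pearson correlation of 0.84 and a Spearman correlation of 0.89, a description across probe sets of one gene that share the same 8 arrays. Probe set 4790319, the brightest of the gene, averaged 9.07 ± 0.16 in Ptbp2 KO and 13.16 ± 0.12 in wild type cortex (SD, n = 4 each). Of the 20, 15 averaged below the signal filter in Ptbp2 KO and 5 above it, while all 21 lay above it in wild type. Whether the remaining signal came from Ptbp2 transcripts, from a related sequence or from array background was not tested.

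**Figure D2:**
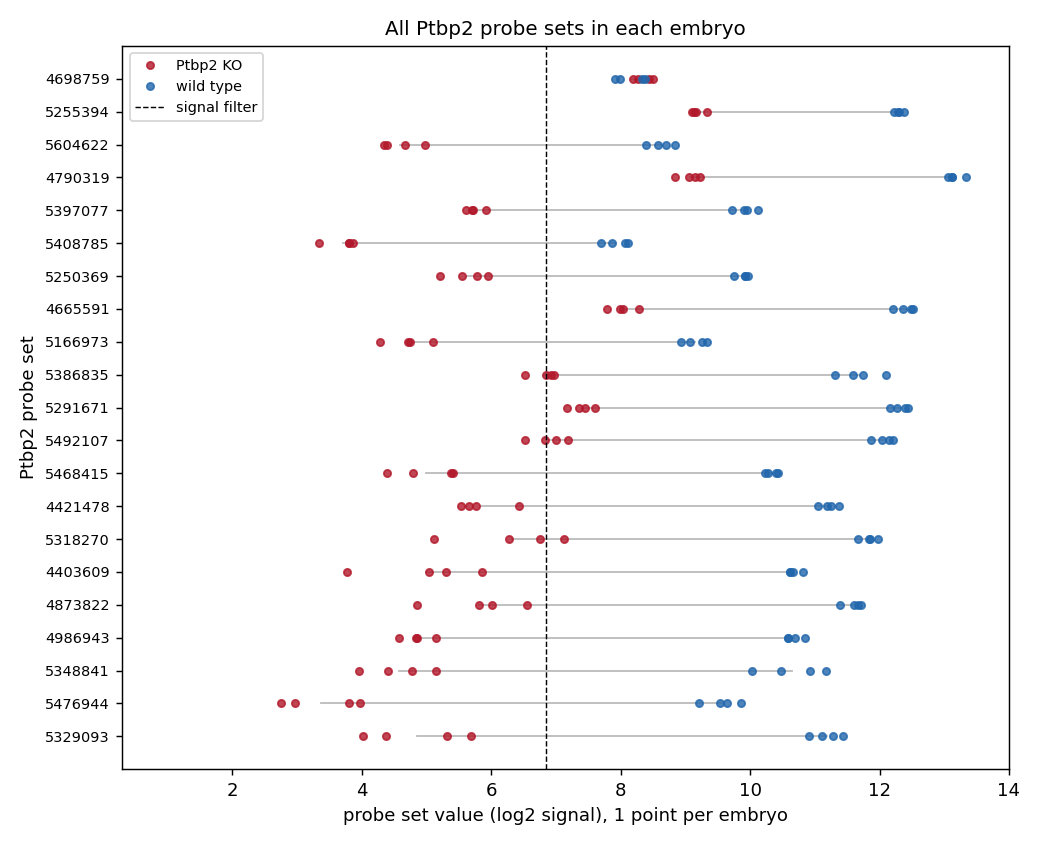
Each row is 1 of the 21 Ptbp2 probe sets, ordered by log2 fold change, with 1 point per embryo for Ptbp2 KO and for wild type on a log2 signal axis; grey lines join the group means and the dashed line is the signal filter of 6.84. In 20 rows the Ptbp2 KO points lie at least 2.88 below the wild type points, and in the top row, 4698759, the groups overlap.

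One Ptbp2 probe set stood apart from the rest of the gene. Probe set 4698759 had 8.43, 8.19, 8.50 and 8.26 in Ptbp2 KO embryos 1 to 4, against 8.34, 7.99, 7.90 and 8.38 in wild type embryos 1 to 4. The groups overlapped, and the log2 fold change of 0.19 did not pass the test (SE 0.14, 95% interval -0.11 to 0.50, limma adjusted p = 0.80). The whole interval lies far from the differences of the other 20, which reached from -6.33 to -3.11. In wild type cortex it was dimmer than most Ptbp2 probe sets, which averaged between 7.93 and 13.16. Whether it lies outside the deleted part, in a retained transcript or in another gene was not tested.

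Ptbp1, the family member of progenitors and glia, showed no difference in level that passed the test. The gene value over 28 retained probe sets was 10.05, 10.05, 9.97 and 10.17 in Ptbp2 KO embryos 1 to 4, against 10.10, 9.98, 9.93 and 10.22 in wild type embryos 1 to 4. The groups overlapped fully, with every Ptbp2 KO value inside the wild type range. The means were 10.06 ± 0.08 in Ptbp2 KO and 10.06 ± 0.13 in wild type cortex (SD, n = 4 each), and the log2 fold change of 0.0028 did not pass the test (SE 0.094, limma adjusted p = 1.0, two-sided exact permutation p = 1.0). Its 95% interval ran from -0.20 to 0.20, so a change larger than 1.15-fold upward, or to less than 0.872 times wild type, lay outside it. Such an interval, here and for Ptbp3, bounds the array signal of bulk cortex. A change in only part of the cells was not tested. Only 2.03% of genes had a smaller absolute log2 fold change than Ptbp1, and 22.6% had a smaller spread within groups.

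Ptbp3 did not pass the test either. Its gene value over 18 retained probe sets was 9.78, 9.77, 9.81 and 9.74 in Ptbp2 KO embryos 1 to 4, against 9.90, 9.43, 9.69 and 9.72 in wild type embryos 1 to 4. The Ptbp2 KO values were tightly grouped and lay inside the wild type range, which was set by wild type 1 at the top and wild type 2 at the bottom. The means were 9.78 ± 0.03 in Ptbp2 KO and 9.69 ± 0.20 in wild type cortex (SD, n = 4 each), with a log2 fold change of 0.088 (SE 0.10, limma adjusted p = 0.95, two-sided exact permutation p = 0.514). The 95% interval from -0.13 to 0.31 corresponds to 0.914 to 1.24 times wild type. Without wild type 2 the log2 fold change of Ptbp3 was 0.0016, and without wild type 1 it was 0.16, so single wild type embryos decided its size.

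Leaving out both Ptbp2 KO 3 and wild type 3 gave log2 fold changes of -5.15 for Ptbp2 (limma adjusted p = 1.3e-10), -0.010 for Ptbp1 and 0.077 for Ptbp3 (limma adjusted p = 1.0 for both). The sign of the Ptbp1 value also turned without wild type 2, without wild type 3 and without Ptbp2 KO 4, at -0.040 to -0.023. Over all 18 alternative settings the intervals reached from -0.26 to 0.28 for Ptbp1 and from -0.20 to 0.37 for Ptbp3, or at most 1.21-fold and 1.29-fold upward. As a background for these values, the median absolute log2 fold change over all genes tested was 0.076.

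Single probe sets of the paralogs were compared next. None of 28 retained Ptbp1 and none of 18 retained Ptbp3 probe sets passed in limma, where 0.0921% of all retained probe sets did so in either direction. At an unadjusted p under 0.05, 1 Ptbp1 probe set was lower and 2 Ptbp3 probe sets were higher, against 2.59% lower, 4.84% higher and 7.44% in either direction of all retained probe sets. Higher values without overlap were seen for 1 probe set in each paralog, 5127750 in Ptbp1 (log2 fold change 0.22) and 4414571 in Ptbp3 (0.16), against 2.73% of retained and 2.38% of all probe sets (3.82% of all in either direction). The log2 fold changes ran from -0.50 to 0.33 in Ptbp1, with a median of 0.044, and from -0.25 to 0.56 in Ptbp3, with a median of 0.073; the median over all retained probe sets was 0.023. Values above 0 were found for 16 of 28 in Ptbp1 and 12 of 18 in Ptbp3. The single Ptbp1 probe set under the filter, 5616977, averaged 2.84 in Ptbp2 KO and 3.04 in wild type cortex and carried almost no signal.

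**Figure D3:**
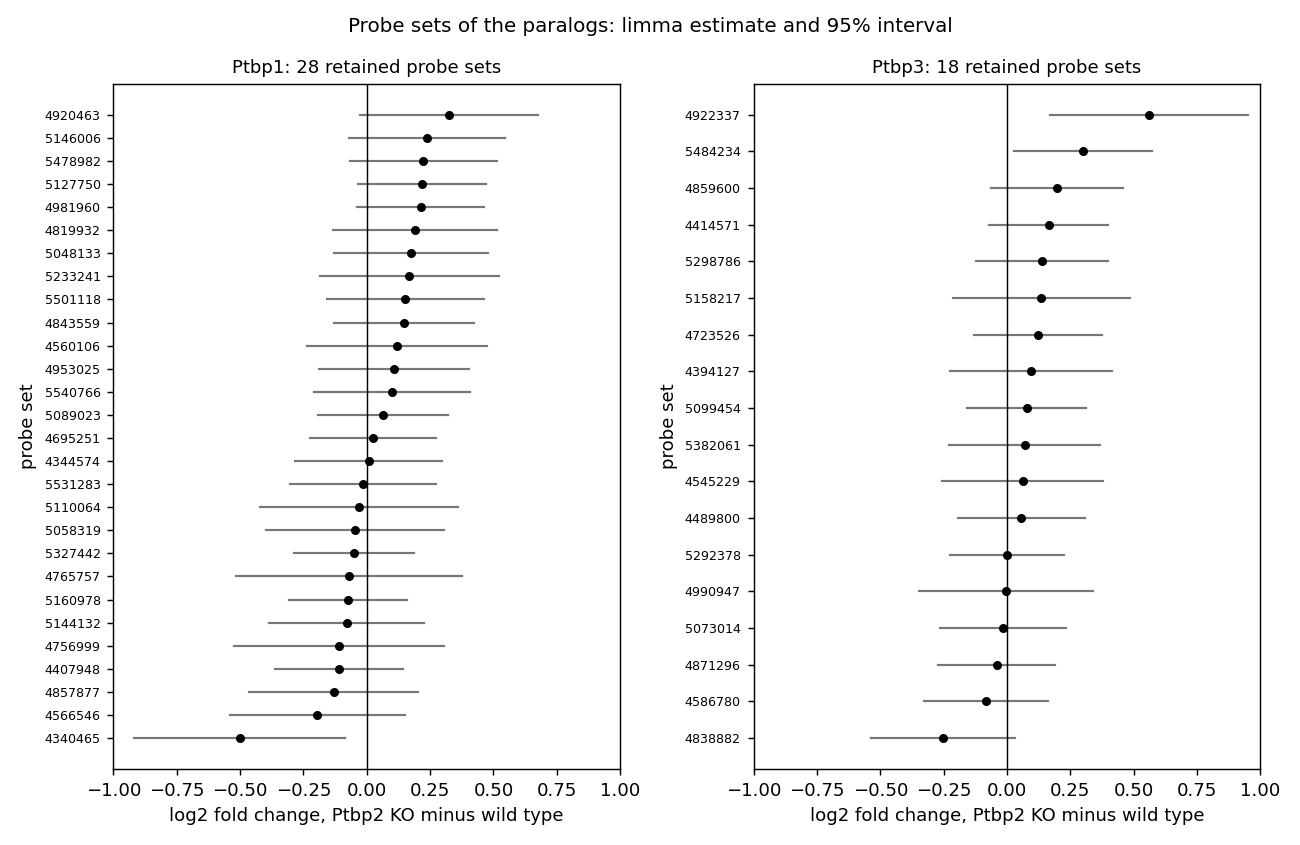
Log2 fold change (Ptbp2 KO minus wild type, horizontal axis) of each retained probe set of Ptbp1 and Ptbp3 with its 95% limma interval. The interval leaves out 0 for 4340465 in Ptbp1 and for 4922337 and 5484234 in Ptbp3, and no probe set passes after adjustment over all probe sets.

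The usage of a probe set, its change relative to the other probe sets of its gene, was tested to look for regulated exons within the paralogs. With limma diffSplice, 0 of 28 Ptbp1 and 0 of 18 Ptbp3 probe sets passed, where 0.212% of the 195604 probe sets tested did so. In diffSplice the variance is pooled over the probe sets of a gene. Its SE was therefore the same for all probe sets of Ptbp1 (0.15) and of Ptbp3 (0.13), and is not the spread of a single probe set. Before adjustment, 1 in Ptbp1 and 2 in Ptbp3 had a diffSplice p under 0.05, as did 4.57% of all. The splicing index, in which each probe set minus its gene value is fitted with its own variance, also called 0 in both genes, against 0.00869% of all, with 1 in Ptbp1 and 2 in Ptbp3 at an unadjusted p under 0.05, against 5.27% of all. The 3 probe sets with an unadjusted diffSplice p under 0.05 are described in turn.

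In Ptbp1, probe set 4340465 had the lowest usage deviation of its gene. It had 7.57, 7.76, 7.04 and 7.92 in Ptbp2 KO embryos 1 to 4, against 8.28, 8.09, 7.74 and 8.19 in wild type embryos 1 to 4. The levels overlapped only through Ptbp2 KO 2 and 4, which lay above wild type 3. After the gene value of the same array was subtracted, the Ptbp2 KO values of -2.47, -2.29, -2.94 and -2.25 all lay below the wild type values of -1.83, -1.89, -2.19 and -2.03. Relative values without overlap were seen for 2 of 28 Ptbp1 probe sets, this one lower and 1 higher, and for 0 of 18 in Ptbp3, against 1.28% of all probe sets tested lower and 2.92% in either direction. The usage deviation was -0.56 (SE 0.15, diffSplice adjusted p = 0.099; splicing index -0.50, adjusted p = 0.92). Its call depended on which arrays were used, with diffSplice adjusted p = 0.045 without Ptbp2 KO 2 and 0.032 without Ptbp2 KO 4. With another array left out it reached up to 1.0, the highest without Ptbp2 KO 3, where the deviation was -0.37. Without both Ptbp2 KO 3 and wild type 3 the deviation was -0.42 and did not pass (diffSplice adjusted p = 0.53). Probe set 4340465 also passed under cyclic loess normalization (adjusted p = 0.042) and array weights (adjusted p = 0.033).

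In Ptbp3, probe set 4922337 had the highest usage deviation of its gene. It had 8.12, 7.74, 7.56 and 7.96 in Ptbp2 KO embryos 1 to 4, against 7.47, 7.24, 7.58 and 6.84 in wild type embryos 1 to 4. Ptbp2 KO 3 lay level with wild type 3, and the other Ptbp2 KO values lay above all wild type values. The usage deviation was 0.50 (SE 0.13, diffSplice adjusted p = 0.053; splicing index 0.47, adjusted p = 0.92). It passed in diffSplice without wild type 3 (0.60, adjusted p = 0.016), without Ptbp2 KO 3 (0.60, adjusted p = 0.026) and without both (0.70, adjusted p = 0.0065), and with 1 array left out its adjusted p reached 0.94. It also passed with no filter (adjusted p = 0.0496), under quantile normalization (adjusted p = 0.044) and under array weights, where the deviation was 0.82 (adjusted p = 7.1e-08). Its wild type mean of 7.28 was close to the signal filter, and it was the dimmest of the Ptbp3 probe sets in wild type cortex.

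Probe set 4838882 went the other way within Ptbp3. It had 7.86, 7.56, 8.12 and 7.86 in Ptbp2 KO embryos 1 to 4, against 8.04, 8.10, 8.17 and 8.09 in wild type embryos 1 to 4. Only Ptbp2 KO 3 reached into the wild type range. The usage deviation of -0.36 did not pass (SE 0.13, diffSplice adjusted p = 0.45). Probe set 5484234, higher in level by 0.30 at an unadjusted limma p of 0.034 (adjusted p = 0.63), overlapped through wild type 1, and its usage deviation of 0.22 did not pass (diffSplice adjusted p = 1.0).

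**Figure D4:**
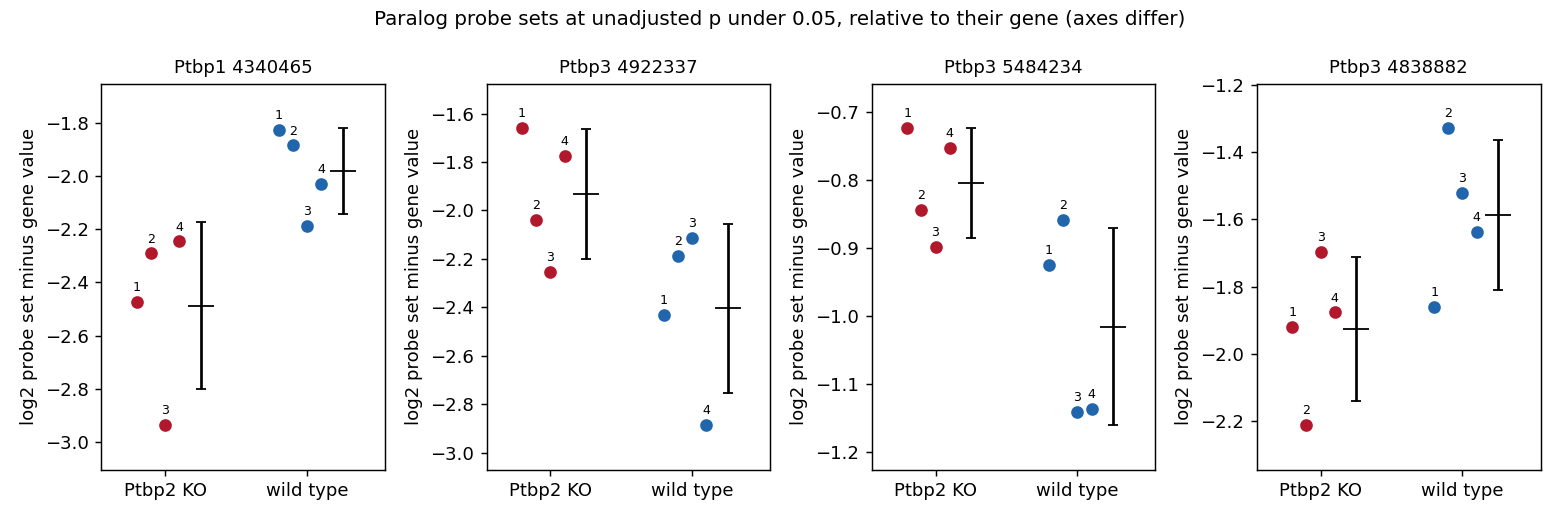
Probe set value minus gene value on the same array (log2, vertical axis, scaled separately in each panel) for the 4 paralog probe sets with an unadjusted p under 0.05 in level or usage, with embryo numbers above the points and mean ± SD as a black bar. The groups do not overlap for Ptbp1 4340465 and overlap for the 3 Ptbp3 probe sets.

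Variation between wild type embryos was shared by most probe sets of Ptbp1. Relative to the mean of its group, wild type 4 was higher in 26 of 28 Ptbp1 probe sets and wild type 3 in only 2 of 28, with mean deviations of 0.17 and -0.19. Among Ptbp2 KO embryos the mean deviations were smaller, between -0.04 and 0.02, but a mean can hide opposite deviations. Ptbp2 KO 3, with a mean deviation of -0.0029, was the highest of all arrays in 10 of 29 Ptbp1 probe sets and the lowest in 7. For Ptbp3, wild type 2 was higher than its group mean in 2 of 18 probe sets and wild type 1 in 14 of 18. In Ptbp2 the values of Ptbp2 KO 3 were the lowest of all arrays in 12 of 21 probe sets.

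After subtraction of the group means, Ptbp1 and Ptbp2 had a Pearson correlation of 0.52 (Spearman 0.52) over the 8 arrays, Ptbp3 and Ptbp2 0.13 (Spearman -0.14), and Ptbp3 and Ptbp1 0.31 (Spearman 0.02). These describe deviations within groups, on arrays that share their normalization, and no test was made of them. For Ptbp2 the deviations ran from -0.41 to 0.29 in Ptbp2 KO and from -0.12 to 0.20 in wild type arrays. Its correlations therefore rest largely on the Ptbp2 KO arrays, where its signal was low. The genes most like each member by this correlation within groups were picked as the 5 with the highest value among all genes tested. For Ptbp1 they were Dazap1, which encodes an RNA-binding protein, Micos13, Mthfd2l, Abhd10 and Pop5, with Pearson correlations between 0.97 and 0.99. Those for Ptbp3 were Syde2, Ran, Atad2, Dnajc28 and Zfp445 (0.97 to 0.99), and those for Ptbp2 were Cntnap2, Rufy1, Erc1, Rec8 and Thsd7b (0.98 to 1.0). None of these 15 genes passed the test of level between the groups, with limma adjusted p between 0.70 and 1.0.

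Genes that act with or beside the PTB proteins were then examined in 5 lists of 57 genes, of which 52 could be tested. None passed in level, against 0.116% of all genes, and 3 did so at an unadjusted p under 0.05, or 5.77%, against 6.49% of all genes. Of these, 1 was higher, as were 2.7% of all genes, and 2 were lower, as were 3.79%. The median log2 fold change of the 52 was 0.0092, and that of all genes 0.0027. Among 10 PTB partners, which include the co-repressor genes Raver1 and Raver2, the PTB-binding nuclear matrix gene Matr3 and Srrm4, whose product promotes inclusion of neuronal exons, 4 lay above 0 and 6 below, and none had an unadjusted p under 0.05. Matr3 averaged 12.25 ± 0.16 in Ptbp2 KO and 12.25 ± 0.17 in wild type cortex, and Srrm4 averaged 9.25 ± 0.12 in Ptbp2 KO and 9.37 ± 0.07 in wild type cortex (SD, n = 4 each). In the nonsense-mediated decay list, 10 of 14 were tested and 7 lay above 0, with log2 fold changes of 0.20 for Rbm8a, an exon junction component, 0.15 for the helicase gene Upf1 and a median of 0.087. None of these 10 had an unadjusted p under 0.05. All 6 genes of the circuit around Rest, the repressor of neuronal genes, and the Ptbp1-targeting miRNA miR-124 were tested, and none had an unadjusted p under 0.05 (Rest 0.16, limma adjusted p = 0.83).

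Celf6, a neuronal splicing regulator, and Pcbp3, which encodes a poly(C)-binding protein, were the lowest of the 52. Celf6 had 8.41, 7.93, 8.23 and 8.20 in Ptbp2 KO embryos 1 to 4, against 8.75, 8.74, 8.52 and 8.66 in wild type embryos 1 to 4. Pcbp3 had 8.62, 8.49, 8.63 and 8.56 in Ptbp2 KO, against 8.97, 8.81, 9.02 and 8.95 in wild type. Neither gene overlapped between the groups, as held downward for 1.97% of all genes. With Elavl1, which encodes a U-rich RNA-binding protein and lay higher without overlap (log2 fold change 0.13, limma adjusted p = 0.88), 3 of the 52 did not overlap, or 5.77%, against 3.65% of all genes in either direction. The log2 fold changes were -0.47 for Celf6 (SE 0.11, limma adjusted p = 0.18) and -0.37 for Pcbp3 (SE 0.089, limma adjusted p = 0.23), and neither passed. Tia1, which encodes a U-rich RNA-binding protein, had the third unadjusted p under 0.05, with a log2 fold change of 0.23 (SE 0.10, limma adjusted p = 0.76). Of the 16 pyrimidine-tract and U-rich binders 11 lay above 0, and of the 10 neuronal splicing regulators tested 3 did.

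**Figure D5:**
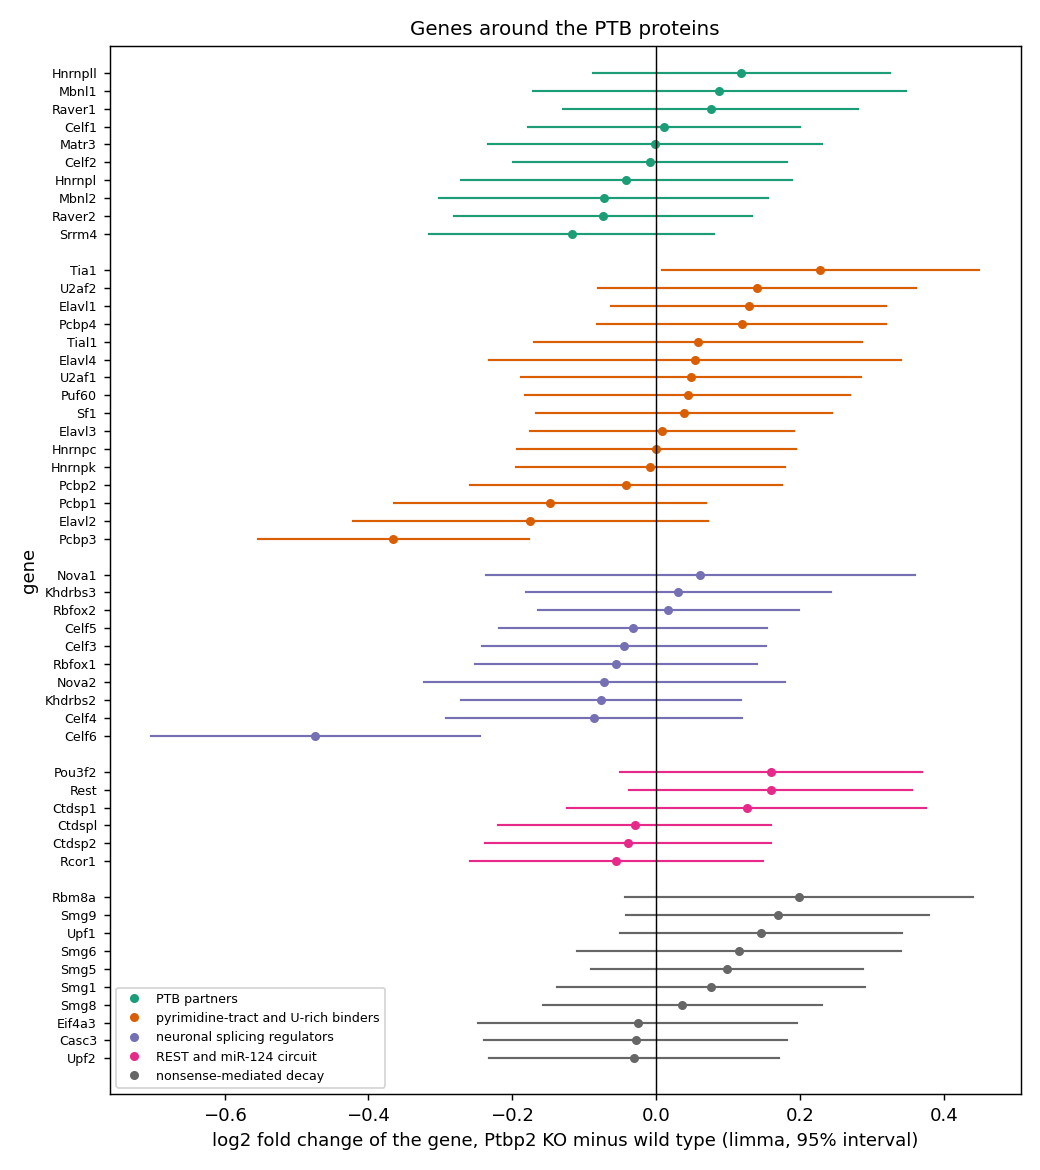
Log2 fold change (Ptbp2 KO minus wild type, horizontal axis) with 95% limma interval for the 52 tested genes of the 5 lists, coloured by list. Most intervals span 0, Celf6 (-0.47) and Pcbp3 (-0.37) lie lowest, and none passes after adjustment over all genes.

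Within these 52 genes, 4 of 1047 probe sets passed in diffSplice, or 0.382%, against 0.212% of all probe sets tested. They were named after their values were seen. Rbfox1, which encodes a splicing factor of neurons and muscle, held a probe set, 4851792, with 9.24, 8.78, 9.40 and 9.08 in Ptbp2 KO embryos 1 to 4, against 8.20, 8.08, 8.41 and 8.35 in wild type embryos 1 to 4. The groups did not overlap, and its usage deviation was 0.85 (SE 0.14, diffSplice adjusted p = 3.2e-05; splicing index adjusted p = 0.48), and the gene value of Rbfox1 differed by -0.06 on the log2 scale (limma adjusted p = 0.97). The other 3 probe sets, in Rcor1 (-0.77), Pcbp3 (-0.94) and Celf6 (0.72), overlapped in level between the groups, with diffSplice adjusted p between 0.0066 and 0.034, and the splicing index called none of them. Those of Rcor1 and Pcbp3 were lowest in Ptbp2 KO 3, at 5.35 and 4.95. Usage is relative to the gene, and the Celf6 probe set itself differed by only 0.05 in level (limma adjusted p = 0.96), against -0.47 for the gene value. The Pcbp3 probe set differed by -1.15 in level, against -0.37 for the gene value.

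Genes next to Ptbp2 on its chromosome were compared, since a targeted locus can carry neighbouring differences. Of the 20 nearest tested genes, 10 on each side, none passed in level, and 1 was higher and 1 lower at an unadjusted p under 0.05, against 2.7% higher and 3.79% lower of all genes. The median log2 fold change of the 20 was -0.03. Dpyd, the next gene on one side, which encodes the first enzyme of pyrimidine breakdown, had 8.60, 8.05, 8.31 and 8.19 in Ptbp2 KO embryos 1 to 4, against 7.88, 8.10, 7.90 and 7.81 in wild type embryos 1 to 4. The groups overlapped through Ptbp2 KO 2 and wild type 2, and the log2 fold change of 0.37 did not pass (SE 0.12, unadjusted p = 0.0060, limma adjusted p = 0.52). Rwdd3, the next gene on the other side, had a log2 fold change of -0.21 (SE 0.19, limma adjusted p = 0.92).

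Markers of other cell types that cortex can hold were compared as well, and their counts stand against 2.7% of all genes higher and 3.79% lower at an unadjusted p under 0.05. Endothelial markers, 7 of 8 tested, had 6 above 0 and 2 at an unadjusted p under 0.05, Tie1 (0.26) and Esam (0.24), and their mean level lay between 8.61 and 8.77 in Ptbp2 KO and between 8.48 and 8.73 in wild type arrays. Microglial markers, 4 of 8 tested, were all above 0 with none at an unadjusted p under 0.05, between 8.29 and 8.61 in Ptbp2 KO and between 8.02 and 8.42 in wild type arrays. Astrocyte markers, 5 of 6 tested, had 1 above 0 and 4 below, with a median log2 fold change of -0.10. Aldh1l1 (-0.28) was the 1 lower at an unadjusted p under 0.05. Their mean level lay between 8.94 and 9.25 in Ptbp2 KO and between 9.08 and 9.46 in wild type arrays. Erythroid markers, 3 of 8 tested with 1 above 0 and 2 below, lay between 7.43 and 7.80 in Ptbp2 KO and between 7.47 and 7.82 in wild type arrays. Meningeal and fibroblast markers, 5 of 6 tested, had 3 above 0 and 2 below. Pdgfra (-0.28) was the 1 lower at an unadjusted p under 0.05, while the collagen gene Col3a1 lay at 0.15. The mean level of these 5 lay between 9.22 and 9.67 in Ptbp2 KO and between 9.39 and 9.57 in wild type arrays. None of the endothelial, microglial, astrocyte, erythroid, meningeal and fibroblast markers passed in level in limma. Their part in the values of Ptbp1 and Ptbp3 was not tested.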

How the data were processed

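RNA from 8 embryonic cortices was measured on Affymetrix mouse exon arrays. The authors deposited 1 log2 signal for each probe set and array. RMA, the mm9 build and Affymetrix Expression Console are named, per the submitters' processing notes, without roles or versions. RMA removes differences in total RNA and compresses low signals.

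Symbols came from the platform annotation and were updated through RefSeq synonyms (GRCm38.p6, used only for names and gene order). Probe sets with a mean of at least 6.84 were retained (312767), and genes with at least 4 were tested. Levels were fitted with lmFit and eBayes, usage with diffSplice without Ptbp2 (limma 3.58.1, R 4.3.3), with Benjamini-Hochberg adjustment over all features at 0.05. Checks ran on simulated data. Alternatives were each array left out, a replicate block, filters, normalizations, variance models, array weights, gene summaries and the splicing index. Same-numbered arrays had correlated deviations above 0.1 in 2 of 4 pairs (0.25 for number 1 and 0.17 for number 4). This does not settle whether the numbers mark pairs, and they were not taken as pairs.

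Members and lists were chosen with earlier results of these data known. Named were the members, probe sets past a test, at an extreme or at unadjusted p under 0.05, up to 4 list genes with the smallest p, immediate neighbours and the 5 most alike genes. Further genes are named for their known role.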

Additional observations from a re-analysis of the deposited data

Results flagged for a closer look

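In groups of 4 embryos, 4 of the 84 groups of values examined held an embryo far from the other 3, or 4.76%, where chance gives about 1 in 20. Ptbp1 probe set 5127750 was at 10.34 in Ptbp2 KO 3, against 10.14 in the other 3 Ptbp2 KO embryos. Ptbp2 probe set 5408785 was at 3.34 in Ptbp2 KO 3, and between 3.80 and 3.87 in the other Ptbp2 KO embryos, all at low signal. Syt1, a calcium sensor of synaptic vesicles, was at 10.99 in Ptbp2 KO 3, against 11.36 to 11.41 in the other Ptbp2 KO embryos. Ptbp3 probe set 5484234 was at 8.98 in wild type 1, against 8.55 to 8.59 in the other wild type embryos.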

How the results depend on the processing

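Of 215 values for 13 results under alternative settings, 188 kept their direction and their side of the threshold, or a count within 1.5 times. Ptbp2 kept its fall in all 18 settings, between -5.35 and -4.73, and Ptbp3 kept its sign and did not pass, between 0.0016 and 0.16. The log2 fold change of Ptbp1 turned to -0.0073 under cyclic loess normalization, -0.073 under array weights and -0.010 without wild type 3 and Ptbp2 KO 3, and with 1 array left out it lay between -0.040 and 0.056, without passing in any setting. Ptbp2 probe sets past the threshold numbered 8 with the filter at the 75th percentile, where only 8 were left to test, and 17 whichever array was left out. Ptbp1 probe sets with differential usage numbered 1 under cyclic loess and array weights, and 0 to 1 with 1 array left out. Ptbp3 probe sets with differential usage numbered 1 with no filter, under quantile normalization, under array weights and without wild type 3 and Ptbp2 KO 3, and 0 to 1 with 1 array left out. These were 4340465 in Ptbp1 and 4922337 in Ptbp3, whose usage deviation was 0.82 under array weights, and the cause was not tested. A replicate block was fitted although the numbers were not taken as pairs. It gave log2 fold changes of -5.25, 0.0028 and 0.088 for Ptbp2, Ptbp1 and Ptbp3. The SEs were 0.104, 0.0828 and 0.0955 with the block, against 0.1408, 0.0945 and 0.1024 without it. With the block 17 Ptbp2 probe sets were past the threshold, and no call of these genes changed. In Ptbp2 KO, 15 of the 20 lower Ptbp2 probe sets averaged below the signal filter, so the size of the Ptbp2 fall is not exact.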
